A study of Rattus norvegicus with 24 samples.

Results

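The core and output genes of the circadian clock were followed in the medial gastrocnemius, a hind limb muscle, of 24 rats. The genes were Bmal1 (also named Arntl), Clock, Npas2, Per1, Per2, Per3, Nr1d1, Dbp and Bhlhe41, taken by their symbols from the gene table, and all 9 were among its 10851 genes. The RNA came from male Wistar rats with 6 animals in each of 4 groups. Rats of the control groups had received saline and were either sedentary (Sed) or trained on a treadmill for several weeks (Ex). Rats of the cardiac cachexia (CC) groups had received 1 injection of monocrotaline, a plant alkaloid that damages lung vessels and overloads the right ventricle, and were likewise sedentary (CC-Sed) or trained (CC-Ex). All rats lived in a reversed light cycle, ran maximal treadmill tests, sedentary ones included, and were euthanized days after the last test. Only CC animals that survived and met the criteria of cachexia were kept. The time of day at which each muscle was taken is not given in the sources used here, so sampling time and group cannot be told apart.

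The clock is a feedback loop of transcription. BMAL1 pairs with CLOCK, or with its paralog NPAS2, and switches on genes that carry E-box motifs, among them Per1, Per2, Per3, Nr1d1, Dbp and Bhlhe41. PER proteins and the BHLHE41 repressor (DEC2) then block this pair, and the nuclear receptor REV-ERBα, the product of Nr1d1, represses Bmal1 through ROR elements, so that Bmal1 RNA and the RNA of its targets peak at nearly opposite times of day. Muscle fibers carry their own clock, which is shifted by feeding, activity and glucocorticoids and which times genes of glucose and lipid use.

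The promoters of 4 of these genes hold 1 of the motifs through which the loop is known to work, and their sequences are shown for that reason. RefSeq promoter windows of the GRCr8 assembly matched 9 of 9 genes by symbol. Both strands were searched for the E-box CACGTG, the D-box TTATGTAA bound by DBP, and the RORE core AGGTCA bound by ROR and REV-ERB receptors. Windows of 300 bases around the start site held the E-box in 10.3%, the D-box in 0.494% and the RORE core in 12.8% of the 8712 genes of the table with a window. The 250 bases before the start are printed 5′ to 3′ on the strand of the gene, with the matched motif in capitals. The Bmal1 window lies at chr1:176766078-176766327 on the plus strand, that of Per2 at chr9:99496994-99497243, that of Bhlhe41 at chr4:180569356-180569605 and that of a second Nr1d1 start site at chr10:84229455-84229704, the last 3 on the minus strand.
Bmal1: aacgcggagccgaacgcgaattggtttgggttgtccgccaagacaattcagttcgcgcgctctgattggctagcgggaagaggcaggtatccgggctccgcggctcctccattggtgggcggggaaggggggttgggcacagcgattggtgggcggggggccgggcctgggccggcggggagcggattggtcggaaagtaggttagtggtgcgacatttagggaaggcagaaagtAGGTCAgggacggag
Per2: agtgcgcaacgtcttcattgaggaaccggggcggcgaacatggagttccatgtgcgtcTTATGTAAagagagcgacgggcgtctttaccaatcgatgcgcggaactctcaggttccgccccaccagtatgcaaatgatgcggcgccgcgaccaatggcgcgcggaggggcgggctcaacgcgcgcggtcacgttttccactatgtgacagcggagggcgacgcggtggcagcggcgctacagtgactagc
Nr1d1: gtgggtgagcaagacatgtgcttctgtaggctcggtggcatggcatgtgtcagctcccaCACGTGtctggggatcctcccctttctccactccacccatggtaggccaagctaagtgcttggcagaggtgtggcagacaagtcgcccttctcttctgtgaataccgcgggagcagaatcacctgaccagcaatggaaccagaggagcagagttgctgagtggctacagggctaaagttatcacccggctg
Bhlhe41: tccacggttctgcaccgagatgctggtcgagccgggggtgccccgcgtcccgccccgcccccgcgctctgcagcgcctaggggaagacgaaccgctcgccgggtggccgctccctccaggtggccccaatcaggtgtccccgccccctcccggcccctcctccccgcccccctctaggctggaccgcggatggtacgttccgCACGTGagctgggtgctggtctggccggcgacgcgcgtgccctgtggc
The RORE core of Bmal1 began 15 bases before the start site, the D-box of Per2 192 bases, the E-box of Nr1d1 191 bases and the E-box of Bhlhe41 48 bases before it. No match was found in the windows of Clock, Npas2, Per1, Per3 and Dbp, which says only that these letters are not in these windows.

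Total counts lay between 37816239 and 50350554 per rat. The 4 measured skeletal muscle markers (Acta1, Ckm, Myh4 and Tnnt3) summed to between 97912 and 228534 CPM (counts scaled by the TMM library size) in every rat, and none of them passed the test between CC and saline rats. CC-Ex replicate 5 stood apart on the first principal component of all genes, at 96.5 units. The mean CC effects of Bmal1, Clock, Per1 and Dbp are also given without it. Libraries numbered 1 to 12 in the labels held 9 of the 12 CC rats. In whole muscle, a change in the makeup of cells and a change of RNA per cell cannot be told apart.

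Bmal1 RNA was higher in CC rats. In Sed it lay at 3.03 CPM in the lowest rat, 10.8 CPM at the median and 20.2 CPM in the highest. The lowest, median and highest Ex rats had 1.34, 5.02 and 16.4 CPM. In CC-Sed the corresponding values were 11.1, 27.2 and 50.4 CPM, and in CC-Ex they were 8.69, 30.5 and 64.9 CPM. A total of 9 of the 12 CC rats were above every saline rat, and the remaining 3 fell within the saline range. Averaged over both training states, the Log2FC of CC over saline was 1.79 (standard error, SE, 0.40), a 3.46-fold difference with an adjusted p of 0.00386 by the quasi-likelihood test of edgeR with Benjamini-Hochberg adjustment over all genes. The call held in 24 of 24 fits that each left out 1 rat, and without CC-Ex replicate 5 the Log2FC was 1.59. Taken alone, the sedentary comparison (Sed vs. CC-Sed) gave 1.43 (SE 0.56, edgeR adjusted p = 0.105) and the exercised one (Ex vs. CC-Ex) gave 2.15 (SE 0.57, edgeR adjusted p = 0.0596). The order of the medians was Ex, Sed, CC-Sed, CC-Ex. The neighbours Ex and Sed, and CC-Sed and CC-Ex, did not differ beyond their spread, with differences of -0.60 (SE 0.55) for Ex against Sed and 0.12 (SE 0.54) for CC-Ex against CC-Sed on the log2 scale.

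**Figure D1:**
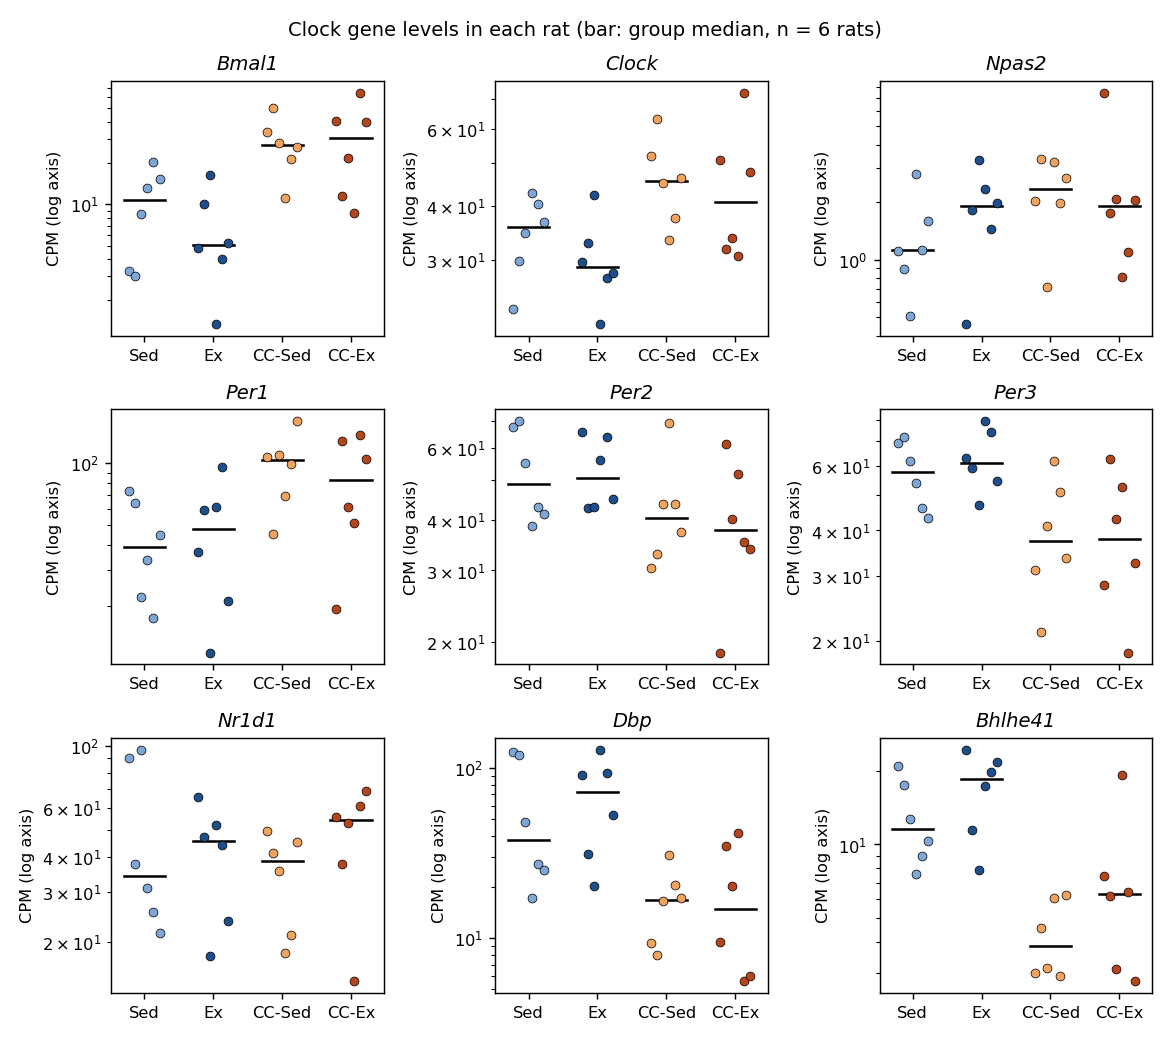
CPM of each clock gene (vertical log axes) by group, with 1 point for each rat and a bar at the median of 6 rats. Bmal1 points of 9 CC rats lie above all saline points, Bhlhe41 points of CC-Sed lie below all Sed points, and Nr1d1 points overlap in every pair of groups.

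Clock, the partner of Bmal1, followed with a smaller difference. Its lowest, median and highest values were 23.1, 35.7 and 42.6 CPM in Sed and 21.4, 28.9 and 42.2 CPM in Ex. They were 33.3, 45.7 and 63.1 CPM in CC-Sed and 30.6, 40.7 and 72.6 CPM in CC-Ex. The groups overlapped, and 7 of 12 CC rats exceeded every saline rat. The mean CC effect on Clock was a Log2FC of 0.49 (SE 0.15, edgeR adjusted p = 0.0195), which passed the adjusted p but not the minimum Log2FC of 1 used for a differentially expressed gene (DEG). Without CC-Ex replicate 5 it was 0.37 (edgeR adjusted p = 0.0438).

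Npas2, which can stand in for Clock, was scarce, with group medians between 1.12 and 2.34 CPM. Its mean CC effect was 0.62 (SE 0.35, edgeR adjusted p = 0.183). Its largest value, 7.48 CPM in CC-Ex replicate 1, was far above the other CC-Ex rats, and without that rat the mean CC effect was 0.26. At this spread between rats no difference in Npas2 was detectable.

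Among the repressors, Bhlhe41 fell in CC rats. The lowest, median and highest Sed rats had 7.57, 11.5 and 20.8 CPM, and the CC-Sed rats had 2.92, 3.85 and 6.20 CPM. These groups did not overlap, which was so for 1 of the 9 clock genes and for 3.61% of all genes in Sed vs. CC-Sed. The Ex rats ranged from 7.87 to 24.4 CPM with a median of 18.5 CPM. In CC-Ex, 5 rats lay between 2.77 and 7.41 CPM, below every saline rat, and replicate 4 had 19.2 CPM, close to the Ex median.

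Bhlhe41 had a Log2FC of -1.59 (SE 0.40) in Sed vs. CC-Sed, with an edgeR adjusted p of 0.0236. It was the only clock gene to pass as a DEG there, 1 of 9 against 1.87% of all genes. The call was lost without Sed replicate 1, Sed replicate 2, CC-Sed replicate 1 or CC-Sed replicate 3, with edgeR adjusted p between 0.0502 and 0.0653, and held in the other 8 of 12 fits that left out 1 rat. In Ex vs. CC-Ex its Log2FC was -1.18 (SE 0.39, edgeR adjusted p = 0.0994), and without CC-Ex replicate 4 it was -1.72 (edgeR adjusted p = 0.00796). The mean CC effect, a Log2FC of -1.39 (SE 0.28, edgeR adjusted p = 0.00185), held in 24 of 24 fits that left out 1 rat. Bhlhe40, its paralog DEC1, had a mean CC effect of -0.60 (SE 0.27, edgeR adjusted p = 0.0973).

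The 3 Period genes did not move together. Per1 was higher in CC rats, while Per3 was lower and Per2 did not pass the test. Per1 lay at 17.5, 38.97 and 73.0 CPM in the lowest, median and highest Sed rat, and at 45.0, 103 and 161 CPM in CC-Sed. The values were 11.8, 47.9 and 96.4 CPM in Ex and 19.3, 83.0 and 139 CPM in CC-Ex. The groups overlapped, and 7 of 12 CC rats exceeded every saline rat. The mean CC effect on Per1 was a Log2FC of 1.02 (SE 0.34, edgeR adjusted p = 0.0296), close to the minimum of 1 for a DEG. It passed both criteria in 12 of 24 fits that left out 1 rat, where it ranged from 0.89 to 1.18, the lowest value being that without CC-Ex replicate 5 (edgeR adjusted p = 0.0582).

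Per3 fell by 0.60 on the log2 scale in the mean of both training states (SE 0.18, edgeR adjusted p = 0.0190). Its medians were 57.9 CPM in Sed, 61.0 CPM in Ex, 37.4 CPM in CC-Sed and 37.9 CPM in CC-Ex, and 8 of 12 CC rats were below every saline rat. Its Log2FC stayed between -0.69 and -0.53 when any 1 rat was left out. For Per2 the medians were 49.0, 50.6, 40.4 and 37.8 CPM in the same order, with a Log2FC of -0.34 (95% interval -0.69 to 0.00, edgeR adjusted p = 0.121). CC-Sed replicate 4, at 69.3 CPM, was above the other CC-Sed rats, which had 30.5 to 43.7 CPM.

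Nr1d1, which encodes REV-ERBα, did not differ detectably between CC and saline rats. Its lowest, median and highest values were 21.5, 34.4 and 96.7 CPM in Sed and 18.3, 38.7 and 49.5 CPM in CC-Sed. They were 17.7, 45.8 and 65.8 CPM in Ex and 14.4, 54.2 and 68.9 CPM in CC-Ex. Sed replicates 1 and 3, at 90.5 and 96.7 CPM, were the highest of all rats. The mean CC effect was -0.15 with a 95% interval from -0.75 to 0.44 (edgeR adjusted p = 0.704). Its paralog Nr1d2 (REV-ERBβ) fell by 0.54 (SE 0.16, edgeR adjusted p = 0.0171).

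Dbp, the D-box transcription factor that relays the clock to its output genes, was lower in CC rats. The lowest, median and highest values were 17.2, 37.99 and 125 CPM in Sed and 20.4, 72.2 and 128 CPM in Ex. They were 8.00, 16.8 and 31.0 CPM in CC-Sed and 5.58, 14.8 and 41.7 CPM in CC-Ex. All 12 CC rats were below the median of the saline rats and 7 were below the lowest of them. The mean CC effect was a Log2FC of -1.82 (SE 0.41), a 3.54-fold lower level (edgeR adjusted p = 0.00410). It held in 24 of 24 fits that left out 1 rat and was -1.74 without CC-Ex replicate 5. Sedentary and exercised rats gave -1.82 (edgeR adjusted p = 0.0601) and -1.83 (edgeR adjusted p = 0.0907) when compared alone.

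**Figure D2:**
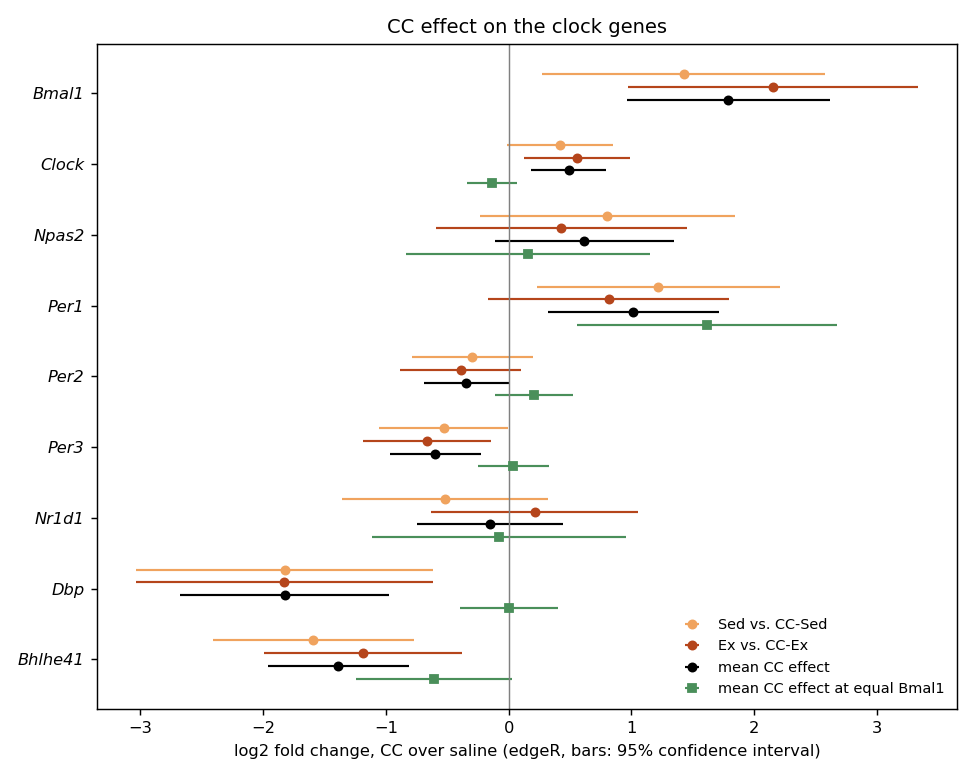
Log2FC of CC over saline for the clock genes (horizontal axis) in Sed vs. CC-Sed, in Ex vs. CC-Ex, in their mean, and in their mean at equal Bmal1, with 95% confidence intervals of edgeR as bars. Bmal1 and Dbp lie on opposite sides of 0 in both comparisons, and at equal Bmal1 the interval of Dbp spans 0 while that of Per1 does not.

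Counted together, 4 of the 9 clock genes (Bmal1, Per1, Dbp and Bhlhe41) were DEGs for the mean CC effect, against 2.88% of all genes. By the adjusted p alone there were 6, with Clock and Per3 added, against 27.8% of all genes. In Ex vs. CC-Ex none of the 9 was a DEG by edgeR, where 0.525% of all genes were, and 5 had an unadjusted p under 0.05, against 22.6% of all genes. DESeq2 called Bmal1, Dbp and Bhlhe41 there, and limma-voom called Bmal1 and Bhlhe41. The sedentary and the exercised comparison share no rats, and 8 of 9 genes had the same sign in both, Nr1d1 being the exception (-0.52 and 0.21). The share of all genes with the same sign in both was not computed. Several of the 9 genes vary together between rats, so their signs are not separate agreements.

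Training moved none of the clock genes past the test. In Sed vs. Ex, in CC-Sed vs. CC-Ex, in the mean training effect and in the interaction, 0 of the 9 genes were DEGs by edgeR, DESeq2 or limma-voom, as were 0% of all genes. For the mean training effect, Bhlhe41 alone had an unadjusted p under 0.05, as had 1.75% of all genes, and was 0.60 higher in trained rats (SE 0.27, edgeR adjusted p = 1.00). In CC rats alone the Bhlhe41 difference was 0.80 with a 95% interval from -0.01 to 1.61. Both values include CC-Ex replicate 4, at 19.2 CPM of Bhlhe41. The other CC-Ex rats had 2.77 to 7.41 CPM and the CC-Sed rats 2.92 to 6.20 CPM. The training differences without that rat are not given here. For the other 8 genes the mean training effect lay between -0.24 for Bmal1 and 0.31 for Npas2. The interaction, the CC effect in exercised minus that in sedentary rats, was 0.73 for Bmal1 with an interval from -0.88 to 2.34, so that a difference of this size between training states was not detectable at this spread.

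Rats of the same group differed widely in clock genes. After removal of group means, the standard deviation of log2 CPM was 1.08 for Bmal1 and 1.08 for Dbp, ranks 195 and 194 from the highest among all genes, whereas the median gene had 0.30. Per1 had 0.93, Npas2 0.91, Nr1d1 0.78 and Bhlhe41 0.70. The smallest values were those of Per3 (0.47), Per2 (0.43) and Clock (0.37). Over all 24 rats the highest Bmal1 level was 48.5 times the lowest.

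This spread was shared between clock genes. With group means removed, Bmal1 correlated with Clock at r = 0.91 (Spearman 0.93), with Dbp at -0.94 (Spearman -0.93), with Per3 at -0.84 (Spearman -0.90) and with Per2 at -0.74 (Spearman -0.81) over 24 rats. The permutation p, drawn within groups, was 1e-05 for Clock, Dbp and Per3, the smallest these permutations can give, and the adjusted p over 8 relations was 2.67e-05 for these and 1.00e-04 for Per2. Bhlhe41 followed at r = -0.59 (Spearman -0.53, permutation adjusted p = 0.00918 and 0.0265). No relation was shown for Per1 (r = -0.39, Spearman -0.33, permutation adjusted p = 0.125 and 0.183), for Npas2 (r = 0.24, Spearman 0.33, permutation adjusted p = 0.338 and 0.183) or for Nr1d1 (r = -0.01, Spearman 0.00, permutation adjusted p = 0.972 and 0.990). Without Ex replicates 3 and 4, the 2 rats farthest from the median of Bmal1, r was 0.90 for Clock, -0.95 for Dbp, -0.86 for Per3, -0.81 for Per2 and -0.59 for Bhlhe41.

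**Figure D3:**
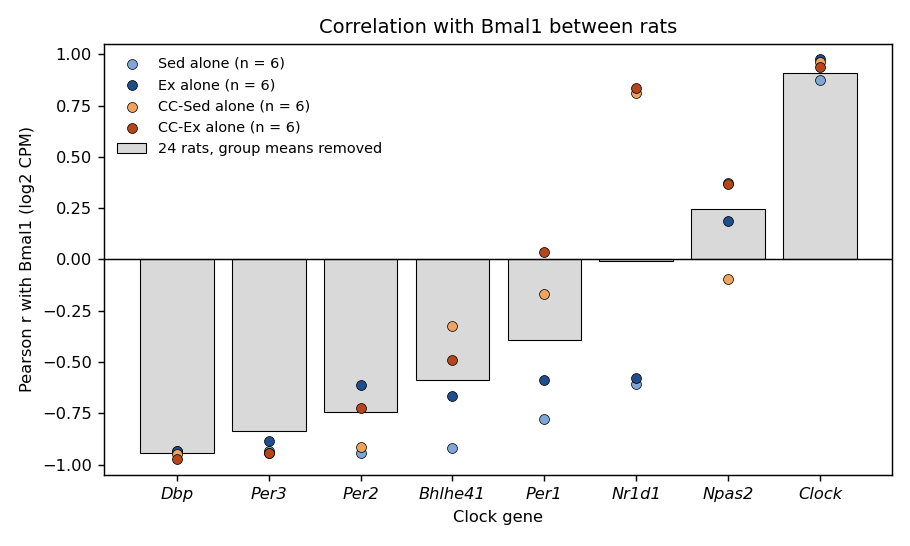
Pearson r of each clock gene with Bmal1 on log2 CPM (vertical axis), with bars for 24 rats after removal of group means and points for the 6 rats of each group alone. Dbp, Per3 and Clock keep r above 0.87 in size in every group, while the Nr1d1 points of saline and CC groups lie on opposite sides of 0.

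Within each group of 6 rats alone, r with Bmal1 lay between -0.97 and -0.93 for Dbp, between -0.94 and -0.88 for Per3 and between 0.87 and 0.98 for Clock. For 3 genes the sign of r was not the same in every group. Npas2 had -0.09 in CC-Sed against 0.19 to 0.37 in the other groups, and Per1 had 0.04 in CC-Ex against -0.78 to -0.17. The r of Nr1d1 with Bmal1 was -0.61 in Sed and -0.58 in Ex, but 0.84 in CC-Ex and 0.81 in CC-Sed. The slope of log2 Nr1d1 on log2 Bmal1 was -0.42 (SE 0.16) in saline rats and 0.61 (SE 0.20) in CC rats. A test of the difference in slope, chosen after these values were seen, gave 1.02 (SE 0.26) with an edgeR p of 8.06e-04 and an adjusted p of 0.0960 over 10850 genes. When each rat was left out in turn, the difference stayed between 0.86 and 1.14 and its adjusted p between 0.0332 and 0.347. No gene passed this test after adjustment, and 16.6% had an unadjusted p under 0.05. Per3 had a smaller p than Nr1d1, with slopes of -0.22 in saline and -0.59 in CC rats, a difference of -0.37 (SE 0.08, edgeR adjusted p = 0.0830). Among the other clock genes the difference ranged from -0.18 for Per2 to 0.57 for Per1, and the edgeR adjusted p was at least 0.194, the value of Clock. Saline and CC rats covered different Bmal1 levels, shared only between 8.69 and 20.2 CPM, so that a bent line and a different slope in each condition cannot be told apart.

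**Figure D4:**
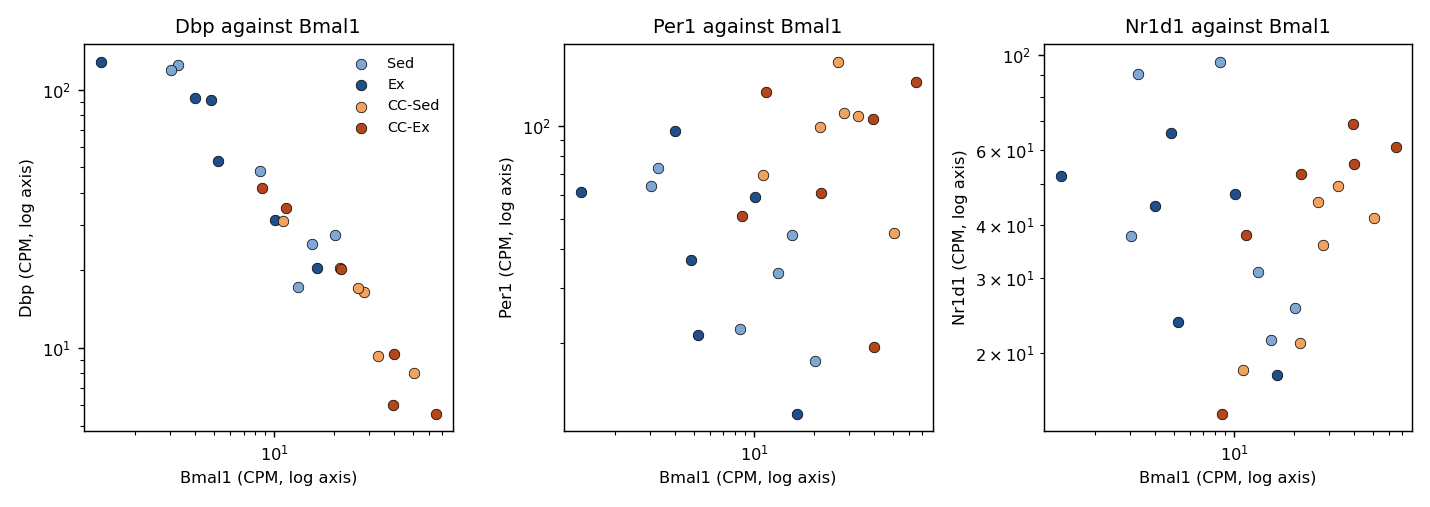
CPM of Dbp, Per1 and Nr1d1 against CPM of Bmal1 (log axes), with 1 point per rat coloured by group. Dbp falls along 1 line through all groups, Per1 of most CC rats lies above that of saline rats, and Nr1d1 falls with Bmal1 in saline rats and rises with it in CC rats.

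The CC effect was then fitted with the log2 CPM of Bmal1 as a covariate, a model added after seeing the data. At equal Bmal1 the Log2FC of Dbp was 0.01 with a 95% interval from -0.39 to 0.40, where it had been -1.82. For Clock it was -0.14 (interval -0.34 to 0.07), for Per3 0.04 (interval -0.25 to 0.33) and for Per2 0.21 (interval -0.11 to 0.53). Per1 kept its direction and was 1.62 higher in CC rats (SE 0.51, edgeR adjusted p = 0.157). Bhlhe41 was at -0.61 (interval -1.24 to 0.03, edgeR adjusted p = 0.384). In this model 0 of the 8 genes passed after adjustment by edgeR, and of all genes 0.0922% were DEGs, 10 against 313 without the covariate. Bmal1 itself differed between CC and saline rats, so the covariate shares part of the CC effect and calls can be lost for that reason. The SE rose for Per1 (0.34 to 0.51) and Nr1d1 (0.29 to 0.50) and fell for Dbp (0.41 to 0.19). What part of the CC effect depends on Bmal1 was not tested. Only 5 saline and 3 CC rats lay in the Bmal1 range that both conditions share, so these values rest largely on the straight line fitted to each gene.

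Set against each other, the Bmal1-phase genes (Bmal1, Clock and Npas2) and the Dbp-phase genes (Per1, Per2, Per3, Nr1d1, Dbp and Bhlhe41) shifted in opposite directions in the mean of log2 CPM, by 0.97 and -0.55 from saline to CC rats. The difference between the sets was -2.52 (SD 1.17, n = 12) in saline and -1.003 (SD 0.874, n = 12) in CC rats. The Dbp-phase mean joined genes that moved apart, since Per1 rose while Per3, Dbp and Bhlhe41 fell. Of the 18 pairs of genes from different sets, 17 had a negative r after removal of group means, and of the 18 pairs within a set, 15 had a positive r. The exceptions all involved Nr1d1, with r of 0.08 with Clock, -0.08 with Per2, -0.16 with Per3 and -0.06 with Bhlhe41. Nr1d1 had r of 0.01 with Dbp and -0.01 with Bmal1, so its place in the Dbp-phase set does not come from these values. The pairs reuse the same genes and are not independent, and the share over all gene pairs was not computed.

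The difference between log2 Bmal1 and log2 Dbp was also taken in each rat. Its mean was -2.93 (range -6.54 to -0.32, n = 12) in saline rats and 0.75 (range -2.26 to 3.53, n = 12) in CC rats. All CC rats but CC-Sed replicate 4 and CC-Ex replicates 2 and 4 were above every saline rat. As CPM is not divided by gene length, only the change of this difference between rats can be read, not its sign. No relation with the library number of the labels passed the test for any clock gene over 24 rats with group means removed (permutation adjusted p = 0.662 for each of the 9). Without CC-Sed replicate 6 and CC-Ex replicate 6, the 2 rats farthest from the median, r was -0.58 for Nr1d1, where it had been -0.35. Among the 6 Sed rats alone, r with the library number was 0.87 for Bmal1, 0.75 for Clock, -0.95 for Per3, -0.79 for Per2 and Nr1d1, -0.76 for Dbp and -0.73 for Bhlhe41. The other groups did not share these signs throughout. In Ex, CC-Sed and CC-Ex, r was -0.25, -0.43 and 0.48 for Bmal1. It was 0.07, 0.41 and -0.47 for Per3 and 0.07, 0.60 and -0.63 for Dbp. Within libraries 1 to 12, the CC effect was 2.29 for Bmal1, -2.08 for Dbp, -1.53 for Bhlhe41 and 0.52 for Per1, and none passed the test with 3 saline rats. Within libraries 13 to 24, it was 1.56 for Bmal1, -2.06 for Dbp, -1.83 for Bhlhe41 and 1.52 for Per1, of which the last 2 passed (edgeR adjusted p = 0.00775 and 0.0413).

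**Figure D5:**
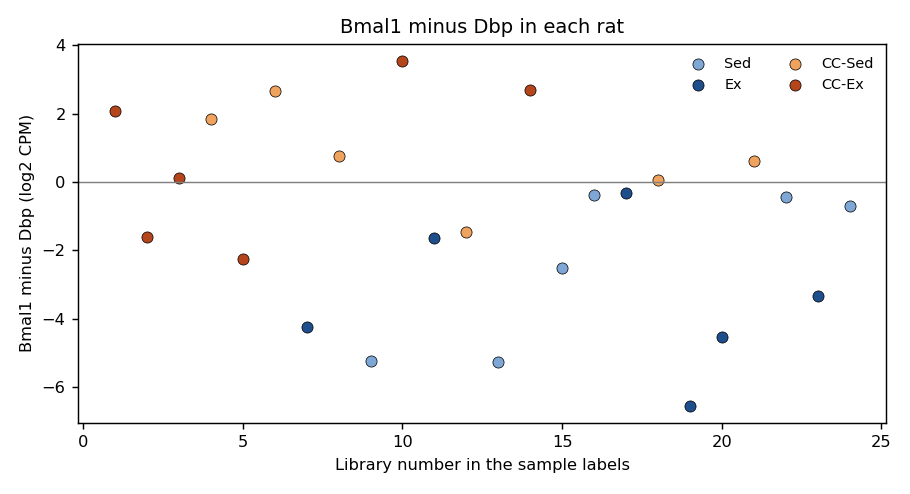
Log2 CPM of Bmal1 minus that of Dbp in each rat (vertical axis) against the library number in the sample labels, coloured by group. Of the 12 CC rats, 9 lie above all 12 saline rats across the library order.

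The genes most like Bmal1 across rats, by r after removal of group means among 10850 genes, included Lrrc30 (0.93), Clock (0.91), Nfil3 (0.82) and Auts2 (0.79). The most opposite were Dbp (-0.94), Per3 (-0.84), Tle4 (-0.84), Nr1d2 (-0.83) and Dnmbp (-0.82). Only 10 genes had an r with Bmal1 above 0.8 in size, 3 of them clock genes of the rule, and the median size of r over all genes was 0.25. For Dbp the most alike were Wee1 (0.83), a kinase of the cell cycle, Per3 (0.83), Nr1d2 (0.83), Tle4 (0.82) and Mbd4 (0.81).

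Further genes of the loop were listed by role, and 17.2% of all genes rose and 10.6% fell in the mean CC effect by the adjusted p alone. Rora, an activator of Bmal1 that competes with REV-ERB, rose by a Log2FC of 0.79 (edgeR adjusted p = 0.0139). Among the 3 D-box factors, Nfil3 (E4BP4), which represses the sites that DBP activates, rose by 1.79 (SE 0.31, edgeR adjusted p = 8.08e-04) and was a DEG in both the sedentary (1.72) and the exercised (1.85) comparison. The third, Tef, had a Log2FC of -0.08 (edgeR adjusted p = 0.588). Of the 7 measured repressors, 3 rose and 2 fell, Cry1 (0.32) and Cry2 (0.27) rising with Per1.

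Among the modifiers of clock proteins, Csnk1d (0.42) and Csnk1e (0.30), kinases that mark PER for decay, and the deacetylase Sirt1 (0.46) rose. Of 11 measured output genes in muscle, 3 rose and 1 fell. Pdk4, which limits glucose oxidation, rose by 2.34, Ucp3 by 1.402 and the reductase gene Por by 0.53, and the myogenic factor Myod1 fell by 1.38. Of the activators, 2 of 3 measured genes rose, both described above.

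Glucocorticoid-induced genes rose beside Per1, which is itself known as a glucocorticoid target. Of 7 listed genes, 6 rose in the mean CC effect (Ddit4, Fkbp5, Klf15, Zbtb16, Tsc22d3 and Klf9), with Log2FC values from 0.66 to 2.84, and Sgk1 did not pass (0.31). With group means removed, Per1 had an r of 0.76 with Ddit4, 0.69 with Klf15 and 0.64 with Klf9 over 24 rats, whereas Bmal1 had 0.04, 0.16 and 0.14 with them. For Fkbp5 and Zbtb16 the order was the other way, with 0.07 and -0.23 for Per1 and 0.38 and 0.42 for Bmal1. Tsc22d3 had 0.55 with Per1 and 0.21 with Bmal1, and Sgk1 had 0.42 and -0.11. CC-Ex replicate 5 was the highest of all rats for Ddit4 (381 CPM), Klf15 (235 CPM), Klf9 (203 CPM) and Tsc22d3 (872 CPM). It was also the highest of all rats for Bmal1 (64.9 CPM) and the highest CC-Ex rat for Per1 (139 CPM). The r values without this rat were not computed. These are descriptions without a test, and the part of glucocorticoids in the Per1 levels was not tested. Of 5 immediate-early genes, Nr4a3 rose and Egr1 fell in the mean CC effect. The Nr4a3 difference was seen mostly without training. Sedentary rats had a median of 3.16 CPM after saline and 45.0 CPM with CC, where single rats ranged from 1.85 to 117 CPM. For trained rats the medians were 2.68 CPM (saline) and 5.07 CPM (CC), and none of the 5 genes passed in that comparison. The interaction did not pass for any of them either.

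Markers of other cell types were counted in the same way. In the mean CC effect, 2 of 4 endothelial genes (Vwf and Kdr) and 2 of 3 erythroid genes (Hbb and Hba-a1) rose, and 1 of 2 adipocyte genes (Adipoq) fell. The endothelial genes Cdh5 (-0.20) and Tek (-0.10) had the opposite sign and did not pass. The erythroid Log2FC lay between 0.50 and 0.69 in Sed vs. CC-Sed and between 1.39 and 1.53 in Ex vs. CC-Ex, with none passing in either. None of 4 slow-fibre, 4 macrophage and 2 Schwann cell genes passed the test. The slow-fibre Log2FC lay between 1.64 and 2.01 in Sed vs. CC-Sed and between -0.13 and 0.39 in Ex vs. CC-Ex. Slow-fibre levels differed widely between rats, with Tnnc1 from 0.375 to 1111 CPM in CC rats, so differences of this size were not detectable. The summed endothelial markers ranged from 132 to 217 CPM in Sed, 147 to 207 CPM in Ex, 167 to 250 CPM in CC-Sed and 151 to 261 CPM in CC-Ex. The summed erythroid markers ranged from 49.9 to 130 CPM, 92.2 to 210 CPM, 50.5 to 409 CPM and 33.8 to 960 CPM in the same order. The part of these cell types in the clock gene levels was not tested. With the slow-fibre score as a covariate, the mean CC effect was 1.79 for Bmal1, -1.83 for Dbp and -1.402 for Bhlhe41.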

How the data were processed

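The authors trimmed the reads with Trim Galore, estimated transcript abundance with Salmon against Ensembl transcripts of mRatBN7.2 and collapsed it to genes by tximport. Values in the deposited file are estimated counts per gene and rat as whole numbers, none below 10. How they were rounded and filtered is not given in the sources used here. Group and replicate came from the sample titles, and every library was a separate rat.

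Counts were scaled by TMM and analysed with edgeR 4.0.16 in R 4.3.3 (quasi-likelihood F test, 1 model of 4 groups and 24 rats, Benjamini-Hochberg adjustment over 10851 genes). DEGs passed an adjusted p of 0.05 and an absolute Log2FC of 1. Correlations used log2 CPM with a prior count of 2, group means removed, and 100000 permutations within groups. Named genes were the 9 members, the 5 genes most alike or opposite to Bmal1 and to Dbp, and listed clock and marker genes that passed the test. Some genes of these lists are not reported here. Members and lists were chosen with earlier results of these data known. Scripts were tested on simulated data. Alternatives were DESeq2 1.42.0, limma-voom (limma 3.58.1), other scaling, filters and prior counts, covariates, libraries 1 to 12 or 13 to 24 alone, a replicate block, only the compared rats, and each rat left out.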

Additional observations from a re-analysis of the deposited data

Results flagged for a closer look

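In 3 of the 36 sets of 6 rats (9 clock genes in 4 groups), the highest or lowest rat stood apart, with a gap to its nearest neighbour that exceeded the 95% critical share of the range for 6 values (Dixon's test). The test used CPM, not log2 CPM. Chance alone gives about 1 such set in 20 only where the values follow a normal distribution, which was not tested here. Each of the 3 was the highest rat of its set, and the gaps were not tested on the log2 scale. Npas2 reached 7.48 CPM in CC-Ex replicate 1, where the other CC-Ex rats had 0.816 to 2.07 CPM. Per2 stood at 69.3 CPM in CC-Sed replicate 4, against 30.5 to 43.7 CPM in the other CC-Sed rats. Bhlhe41 was at 19.2 CPM in CC-Ex replicate 4, against 2.77 to 7.41 CPM in the other CC-Ex rats. CC-Sed replicate 4 and CC-Ex replicate 4 were also the CC rats with the lowest Bmal1 of their groups, at 11.1 and 8.69 CPM.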

How the results depend on the processing

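In Sed vs. CC-Sed, where edgeR called 1 clock gene and 203 genes in all, DESeq2 called 2 and 318, limma-voom 2 and 383, and a model of only the compared rats 2 and 260, while the slow-fibre covariate gave 330 genes in all. Leaving out 1 rat gave 0 to 2 clock genes. In Ex vs. CC-Ex, where edgeR called 0 clock genes and 57 genes in all, DESeq2 called 3 and 214 and limma-voom 2 and 133. All genes called there fell to 20 with upper-quartile scaling, 36 with the library number as a covariate and 1 with only the compared rats. Leaving out 1 rat gave 0 to 3 clock genes, the highest number without CC-Ex replicate 4. Without the minimum Log2FC, all genes called were 701 in the sedentary comparison, 108 in the exercised one and 3017 in the mean CC effect. For the mean CC effect, with 4 clock genes and 313 genes in all, leaving out 1 rat gave 3 to 4. Libraries 1 to 12 alone called 0 clock genes and 0 genes in all, libraries 13 to 24 alone 2 and 492, both with fewer rats, and the Bmal1 covariate 0 and 10. Limma-voom, upper-quartile scaling and a minimum of 1 CPM in every rat each called 3, without Per1. Directions turned for Npas2 in Ex vs. CC-Ex without CC-Ex replicate 1 (-0.28, in a range to 0.66 over the rats left out), for Nr1d1 in Ex vs. CC-Ex with the library number as a covariate (-0.11) and for Nr1d1 in the mean CC effect within libraries 13 to 24 (0.19). With the Bmal1 covariate they turned for Clock (-0.14), Per2 (0.21), Per3 (0.0373) and Dbp (0.00609). The cause of these changes was not tested. Correlations with Bmal1 passed for 5 genes over 24 rats, for 5 to 6 when 1 rat was left out, and for 2 (Clock and Dbp) in the 6 Ex rats alone.

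The replicate numbers of the labels join different rats, and residuals of same-numbered rats had mean correlations from -0.23 to 0.09 between groups. With the replicate number as a block, clock genes called were 1 in Sed vs. CC-Sed, 0 in Ex vs. CC-Ex and 4 in the mean CC effect, and all genes called were 172, 1 and 280. Depth was lowest for Npas2, with 19 to 338 counts per rat, and its part in the precision was not tested.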
